A study of Mus musculus with 14 samples.

Results

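The LIM homeobox genes and their Ldb cofactors were examined in the H3K27ac peak list of the embryonic day 14 (E14) mouse retina. The members were 8 LIM homeobox genes (Lhx1, Lhx2, Lhx3, Lhx4, Lhx5, Lhx6, Lhx8 and Lhx9) and both Ldb genes (Ldb1 and Ldb2), 10 of the 22367 protein-coding genes of the GENCODE vM1 annotation. The members were chosen by family, with earlier results of these data known, and the peaks by position. Isl1, Isl2, Lmx1a and Lmx1b are also LIM homeobox genes but were not members. A peak was assigned to a member when it overlapped the gene body extended by 50 kb on either side, which gave 17 of the 13463 peaks in the list, each assigned to 1 member. Coordinates are those of the mm9 build.

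The study followed LHX2 through the early and late stages of mouse retinal progenitor competence by chromatin accessibility, RNA and ChIP profiling. The sample used here was the H3K27ac ChIP-Seq of E14 retina from CD1 mice, which carry no deletion or transgene in the labels. The labels call its cells retinal progenitor cells, whereas the methods describe dissected retinas. Its 2 replicate libraries were pooled by the authors and set against 1 isotype control, and the remaining samples were not analysed here.

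LIM homeodomain proteins are transcription factors with a pair of LIM zinc finger domains and a DNA-binding homeodomain. Their LIM domains bind Ldb proteins, which dimerise and hold LIM homeodomain factors, LIM-only proteins and single-stranded DNA binding proteins in larger complexes at promoters and enhancers. Lhx2 is required for eye formation and is kept on in retinal progenitors, while other family members specify neurons of the brain, the spinal cord and the mature retina. Acetylation of histone H3 at lysine 27 marks active promoters and enhancers.

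The 5′ ends of these genes differed in base composition, and stretches of 200 bases upstream of annotated start sites are shown for the 5′ end and 1 inner start of Lhx2 and of Ldb1, chosen from several starts of each gene that lay in peaks, for the 5′ end of Ldb2, and for Lhx9 and Lhx8, which had no start-site peak. All are read 5′ to 3′ on the strand of the gene from the mm9 genome, and CG dinucleotides are in capitals.
Lhx2 5′ end, chr2:38194601-38194800, plus strand: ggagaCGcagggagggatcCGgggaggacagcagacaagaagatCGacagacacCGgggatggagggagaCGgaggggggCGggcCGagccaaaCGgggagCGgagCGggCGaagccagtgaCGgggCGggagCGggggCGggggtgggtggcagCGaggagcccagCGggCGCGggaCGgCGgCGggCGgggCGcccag
Lhx2 inner start ENSMUST00000000253.4, chr2:38206628-38206827, plus strand: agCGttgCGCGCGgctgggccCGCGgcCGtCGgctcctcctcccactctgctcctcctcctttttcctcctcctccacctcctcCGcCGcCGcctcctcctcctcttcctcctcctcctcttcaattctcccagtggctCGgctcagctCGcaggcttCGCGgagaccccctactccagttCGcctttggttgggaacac
Ldb1 inner start ENSMUST00000056931.7, chr19:46114112-46114311, minus strand: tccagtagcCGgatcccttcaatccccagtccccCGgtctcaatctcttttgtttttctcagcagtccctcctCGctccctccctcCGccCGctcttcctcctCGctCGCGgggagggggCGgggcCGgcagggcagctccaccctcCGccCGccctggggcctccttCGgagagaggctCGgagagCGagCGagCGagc
Ldb1 5′ end, chr19:46119705-46119904, minus strand: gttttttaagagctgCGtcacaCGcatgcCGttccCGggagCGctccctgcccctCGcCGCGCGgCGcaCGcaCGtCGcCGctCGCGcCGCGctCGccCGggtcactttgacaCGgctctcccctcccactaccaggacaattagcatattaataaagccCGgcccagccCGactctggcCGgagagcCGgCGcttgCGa
Ldb2 5′ end, chr5:45190947-45191146, minus strand: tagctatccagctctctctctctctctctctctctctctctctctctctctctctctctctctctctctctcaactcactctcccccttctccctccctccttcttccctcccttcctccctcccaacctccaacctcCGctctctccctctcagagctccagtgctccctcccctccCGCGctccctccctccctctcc
Lhx9 5′ end, chr1:140745154-140745353, minus strand: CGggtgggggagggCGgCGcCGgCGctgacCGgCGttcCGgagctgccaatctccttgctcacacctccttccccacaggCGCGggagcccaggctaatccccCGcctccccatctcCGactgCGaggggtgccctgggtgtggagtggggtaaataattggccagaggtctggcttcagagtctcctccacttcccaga
Lhx8 5′ end, chr3:153993616-153993815, minus strand: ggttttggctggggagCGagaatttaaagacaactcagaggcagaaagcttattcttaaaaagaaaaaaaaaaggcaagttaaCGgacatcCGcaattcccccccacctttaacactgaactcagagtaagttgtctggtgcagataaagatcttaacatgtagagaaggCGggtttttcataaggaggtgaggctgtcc

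Across those stretches the number of CG dinucleotides ranged from 27 upstream of the 5′ end of Ldb1 to 3 upstream of Ldb2, which held a long run of alternating c and t. Lhx9 carried 13 CG dinucleotides and no peak, and Lhx8 carried 4. The peak at the 5′ end of Lhx2 reached 18 bases into the first stretch, and the printed stretches at the inner Lhx2 start and at Ldb1 lay wholly in peaks.

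Only 3 of the 10 genes had a peak within 1000 bp of an annotated start site, namely Lhx2, Ldb1 and Ldb2, compared with 49.8% of all protein-coding genes. Among the Lhx members, 7 of 8 had none. Of the LIM homeobox genes that were not members, Isl1 had one, and Isl2, Lmx1a and Lmx1b had none. Lhx2 and Ldb1 each had 2 separate start-site peaks, which 2.15% of protein-coding genes had. Lhx2 carried 4 peaks over its gene body, and 0.492% of protein-coding genes carried at least that many. These are counts from 1 pooled list, without replicates and without a test.

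**Figure D1:**
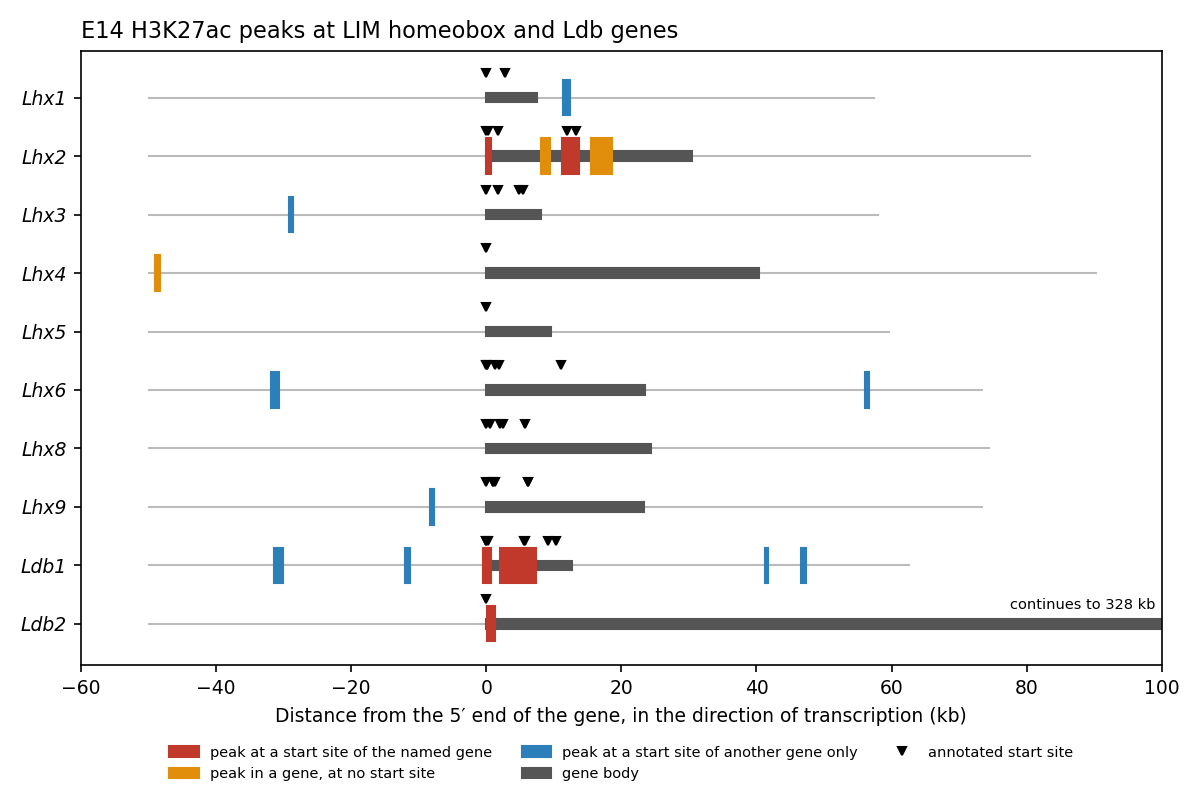
Map of the peaks around each of the 10 genes, aligned at the 5′ end, with distance in kb in the direction of transcription, gene bodies in dark grey, extended windows as thin lines and annotated start sites as triangles. Start-site peaks of the named gene (red) appear at Lhx2, Ldb1 and Ldb2, peaks in a gene but at no start site (orange) at Lhx2 and near Lhx4, and 9 peaks belong to start sites of other genes (blue). The Ldb2 body is cut off at the right and its window runs on.

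Lhx2, the LIM homeobox gene needed to form the eye, spans chr2:38194801-38225253 on the plus strand. Its 4 peaks lay within 18663 bp and covered 7765 bp in sum, and 25.4% of the gene body was under a peak. Among all protein-coding genes its covered body length ranked 34. Of the 15101 protein-coding genes with a body no longer than that of Lhx2 (30453 bp), only Lhx2 and Nuak2, a gene named here after its value was seen, carried 4 or more peaks over the body.

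The first Lhx2 peak, chr2:38194783-38195489, was 707 bp long and began 18 bp before the 5′ end of the gene. Its mean pileup, the depth of ChIP fragments after scaling to the smaller control library, was 18.35, and its fold enrichment over the local control background was 5.69. By length it ranked 9538 of the 13463 peaks and by pileup 3508. It was a short peak of above-median pileup, and it covered 525 bp of exon 1 of the transcript that begins there. At 75.1% GC it was richer in G and C than 98.3% of all peaks. The next annotated start downstream, at position 38196612, was 1123 bp from the nearest peak.

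The third peak along the gene, chr2:38205978-38208537, stood at inner start sites. It covered the starts of 2 transcripts that begin inside the gene, at positions 38206828 and 38208052, and all 586 bp of exon 1 of the 5-exon transcript ENSMUST00000000253.4, whose start lies 12027 bp downstream of the 5′ end of the gene. With 2560 bp it ranked 597 by length, and its pileup of 19.24 ranked 2742. Its fold enrichment was 5.29. It was longer than the peak at the 5′ end, and the pileups of 19.24 and 18.35 have no replicate error by which to judge their difference.

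The other two Lhx2 peaks were in introns. One, chr2:38202965-38204273, lay in intron 1 of the transcripts that begin upstream, 2555 bp from the inner start, and was 1309 bp long with a pileup of 13.3 and a fold enrichment of 4.95. The last, chr2:38210257-38213445, was 3189 bp long and ranked 290 by length. It took in 116 bp of exon 3 and 3073 bp of intron 3 of the 5-exon transcript. Its pileup of 12.5 and fold enrichment of 3.41 were below the medians of all peaks (15.06 and 4.46), and its −log10 q was 2.36. Of the 4 Lhx2 peaks it was the longest and had the lowest pileup.

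**Figure D2:**
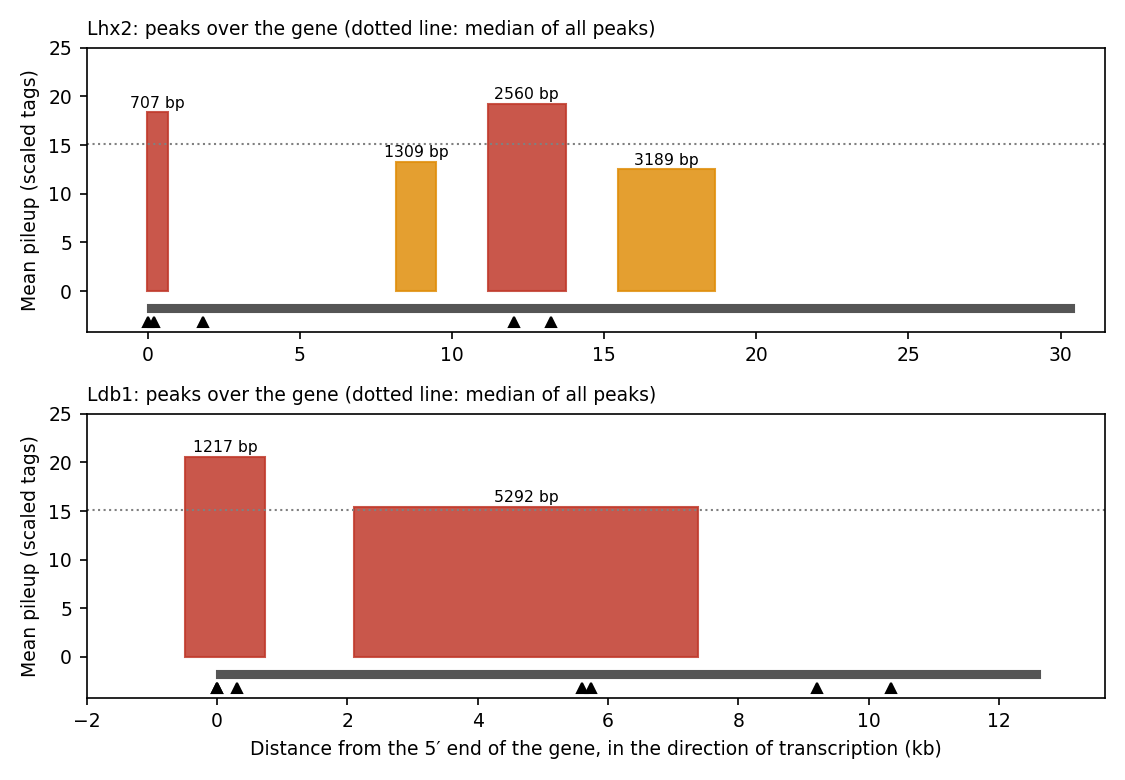
Peaks over the Lhx2 and Ldb1 gene bodies, drawn to scale along the gene in kb, with bar height as mean pileup in scaled tags, the gene body in grey and start sites as triangles. Red bars are start-site peaks and orange bars other peaks, each marked with its length. The 5292 bp peak of Ldb1 and the 3189 bp peak of Lhx2 are wide at a pileup near or below the median of all peaks (dotted line, 15.06).

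Each intronic Lhx2 peak held a single copy of TAATTA, a core sequence bound by many homeodomains, which reads the same on both strands. The motif is shown in capitals within 60 bases of the plus strand, since LIM homeodomain proteins bind related sites.
Lhx2 shorter intronic peak, chr2:38203481-38203540, plus strand: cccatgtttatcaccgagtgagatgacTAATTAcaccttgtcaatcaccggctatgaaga
Lhx2 longer intronic peak, chr2:38212748-38212807, plus strand: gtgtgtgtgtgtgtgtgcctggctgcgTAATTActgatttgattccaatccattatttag

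Neither start-site peak of Lhx2 held these 6 letters. Of all peaks, 10.2% held them, and the share was 11.3% among peaks near the length of the shorter intronic peak and 33.3% among those near the length of the longer. A single copy in each therefore sets neither peak apart from others of its size. The motif was in none of the 300-base windows at the 5′ ends of the 10 genes, and in 3.43% of such windows over all protein-coding genes.

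The gaps between the Lhx2 peaks were 7475, 1704 and 1719 bp. When peaks with gaps of at most 2000 bp were joined, a choice made after the gaps were seen, the 3 inner peaks became 1 region of 10481 bp that ranked 12 by length of the 13301 regions left. No peak of another gene fell in the Lhx2 window, and the nearest ones outside it were 51.5 and 54.4 kb from the gene. Those neighbours lay just past the 50 kb limit of the window. Within 500 kb of the Lhx2 5′ end there were 12 peaks, compared with a median of 8 for all protein-coding genes.

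Lhx9 is the closest relative of Lhx2 and is used in gonad, limb and brain development. It spans chr1:140721763-140745153 on the minus strand and has 6 start sites, none of which lay within 1000 bp of a peak. The single peak of its window, chr1:140752853-140753468, was 7.7 kb upstream at a start site of the uncharacterised gene 2310009B15Rik. It was 616 bp long, with a pileup of 18.43 and a fold enrichment of 5.45. No peak touched the Lhx9 body, against 4 peaks over the Lhx2 body.

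Lhx1 and Lhx5 are a second related pair. Lhx1, a regulator of head and kidney formation that marks horizontal cells in the retina, spans chr11:84331479-84338923 on the minus strand. Its window held 1 peak, chr11:84326527-84327564, beyond the 3′ end of the gene at a start site of Aatf, which codes for a nuclear protein of ribosome production and cell survival. That peak was 1038 bp long, had a pileup of 13.58 and a fold enrichment of 4.47, and was 11.4 kb from the Lhx1 5′ end. Lhx5, which acts in forebrain development, spans chr5:120881895-120891466 on the plus strand. No peak was called in its window, and the nearest was 71.2 kb from its start, a distance reached or exceeded by 26.5% of protein-coding genes.

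Lhx3 and Lhx4, which act together in pituitary and motor neuron development, each had 1 window peak at a neighbouring quiescin sulfhydryl oxidase gene. Lhx3 spans chr2:26055732-26063769 on the minus strand, and its window peak, chr2:26092308-26092957, was 28.5 kb upstream at the start of Qsox2. It was 650 bp long with a pileup of 19.42 and a fold enrichment of 6.57, which ranked 1070 of all peaks. Lhx4 spans chr1:157548827-157589157 on the minus strand, and its window peak, chr1:157637502-157638191, lay within Qsox1, 48.3 kb upstream. That peak was 690 bp long with a pileup of 14.45, and its fold enrichment of 3.15 was the lowest of the 17 peaks.

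Lhx6 and Lhx8 direct the development of forebrain interneurons and cholinergic neurons. Lhx6 spans chr2:35937470-35960928 on the minus strand and had 2 window peaks, both at start sites of other genes. The one 30.6 kb upstream, chr2:35991543-35992809, was at the starts of Mrrf, a mitochondrial ribosome recycling factor, of Rbm18 and of Gm13428. It was 1267 bp long with a pileup of 16.77 and a fold enrichment of 5.33. The one beyond the 3′ end, chr2:35904302-35904868, was at the starts of Morn5 and of Ndufa8, a subunit of respiratory complex I. It was 567 bp long with a pileup of 16.26 and a fold enrichment of 5.80. Lhx8 spans chr3:153969260-153993615 on the minus strand, had no window peak, and was the farthest of the 10 from any peak, at 266 kb, a distance reached or exceeded by 11.7% of protein-coding genes.

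Over the 7 genes without a start-site peak, the windows held 6 peaks. Of these, 5 were at a start site of another gene, the sixth was in Qsox1, and 0 touched the body or an exon of the LIM homeobox gene itself. Having at least 1 peak in the extended window was common in the list, at 72.1% of protein-coding genes, and 8 of the 10 genes had one. The window count alone therefore did not separate these genes from others.

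**Figure D3:**
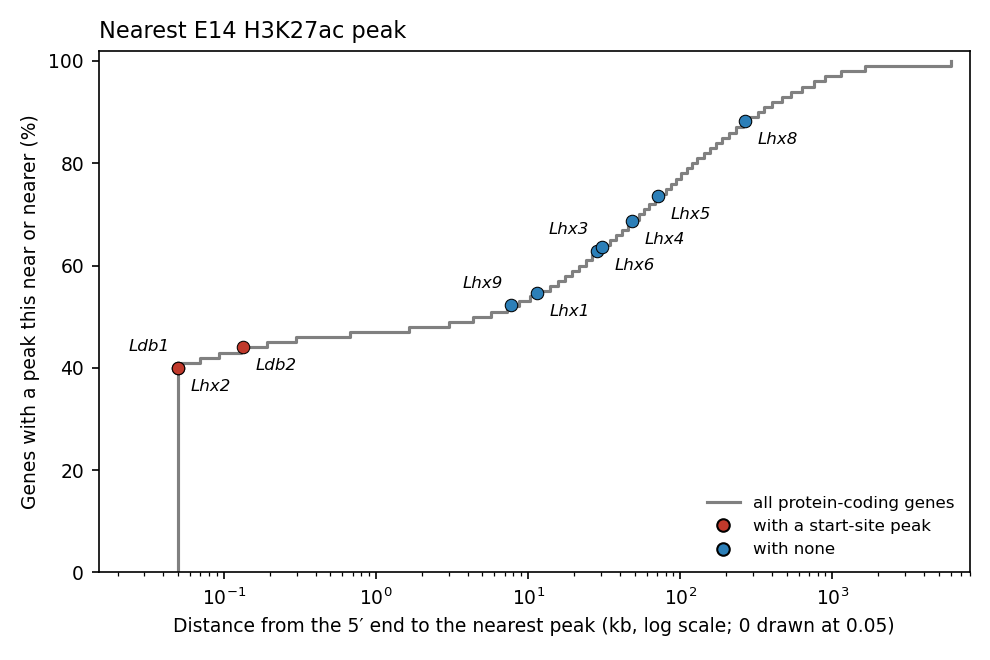
Distance from the 5′ end of a gene to its nearest peak in kb on a log scale (x axis, with 0 drawn at the left) against the percentage of all 22367 protein-coding genes with a peak that near or nearer (grey line). Points mark the 10 genes, red with and blue without a start-site peak. The 7 blue points run from Lhx9 at 7.7 kb to Lhx8 at 266 kb, and Lhx2 and Ldb1 share the point at 0.

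Ldb1, the cofactor through which LIM homeodomain proteins form larger complexes, spans chr19:46107083-46119704 on the minus strand. Its window held 6 peaks, a number that 4.81% of protein-coding genes reached. The peaks over the gene covered 47.7% of its body, against 25.4% for Lhx2. Only 2 of the 6 were at its own starts, and the others were at start sites of neighbouring genes.

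The longest peak of the 10 windows, chr19:46112316-46117607, was inside Ldb1. It was 5292 bp long and ranked 41 of 13463 by length. It covered the inner start sites at positions 46113971 and 46114111, the 567 bp of exon 1 of transcript ENSMUST00000056931.7, and otherwise intron 1 sequence. Its pileup was 15.39, with rank 6368, and its fold enrichment was 4.75. The length rank measures width alone, and by pileup times length the peak ranked 78. It was also among the less CpG-dense peaks, with a CpG observed over expected ratio of 0.303 that was above that of 11.1% of peaks.

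The second Ldb1 peak, chr19:46118973-46120189, covered the 3 start sites at the 5′ end of the gene. It was 1217 bp long, had the higher pileup of the pair at 20.55, with rank 1830, and had a fold enrichment of 5.29. The gene Pprc1, a coactivator related to PGC-1 alpha, is transcribed in the opposite direction from position 46119376 inside this peak, so the acetylation there cannot be divided between both genes. The gap between the Ldb1 start-site peaks was 1365 bp. Joined over gaps of at most 2000 bp they made a region of 7874 bp that ranked 23 by length.

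The 4 other peaks of the Ldb1 window lay between 11.3 and 46.6 kb from the 5′ end. A second Pprc1 peak, chr19:46130974-46131807, was 834 bp long with a pileup of 19.03 and a fold enrichment of 8.55, rank 99 of all peaks and the highest of the 17. The peak at the start of Nolc1, a nucleolar phosphoprotein, was 1247 bp long with a pileup of 14.61. On the 3′ side, the peak at the starts of 4930505N22Rik and 9130011E15Rik had a pileup of 21.4 and a length of 808 bp. The peak at the start of Hps6, a gene of lysosome-related organelle biogenesis, had a pileup of 12.05 and a length of 533 bp. The Ldb1 locus was dense in peaks, with 23 within 500 kb of its 5′ end.

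Ldb2, the second Ldb cofactor, had a single peak where Ldb1 had a cluster. It spans chr5:44863372-45190946 on the minus strand, 327575 bp, and the peak was chr5:45189677-45190813. It was 1137 bp long and began 133 bp downstream of the start site without covering it, taking in 213 bp of exon 1 and 924 bp of intron 1. Its pileup of 8.76 was the lowest of the 17 peaks and ranked 12122 of 13463. Its fold enrichment was 3.88 and its −log10 q was 2.39. At 45.7% GC it was richer in G and C than 3.54% of peaks, and no further peak lay within 500 kb of the 5′ end.

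**Figure D4:**
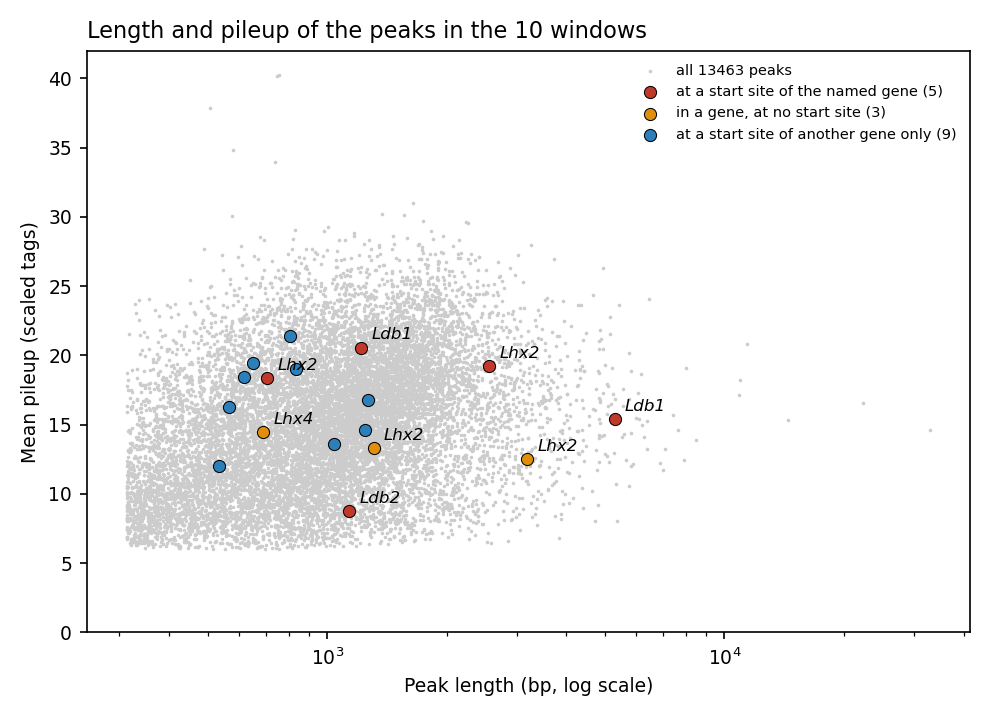
Length in bp on a log scale against mean pileup in scaled tags for all 13463 peaks (grey) and the 17 peaks of the 10 windows (coloured by position as given in the legend). Peaks at start sites of other genes (blue) are between 533 and 1267 bp long, while the labelled peaks of Lhx2 and Ldb1 reach 3189 and 5292 bp and the Ldb2 peak sits at the bottom with a pileup of 8.76.

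The 17 peaks ranged from 533 to 5292 bp in length with a median of 1038 bp, close to the median of 1015 bp over all peaks. Pileup ranged from 8.76 to 21.4 with a median of 16.26, and fold enrichment from 3.15 to 8.55 with a median of 5.29. Peaks at protein-coding start sites were in general longer and higher than other peaks, with medians of 1080 bp and 16.31 against 802 bp and 10.13. The 5 start-site peaks of Lhx2, Ldb1 and Ldb2 had a median above 62.8% of all peaks by length and above 73.9% by pileup. With only the peak at the 5′ end of each gene these values were 57.8% and 73.9%. Taking for each gene the start-site peak with the most bases near a start, a choice that favours long peaks, they were 95.6% and 52.6%. The high length value thus rests on the inner peaks of Lhx2 and Ldb1. Of the 17 peaks, 14 met stricter limits (fold enrichment 4 or more, q 0.001 or less), which 64.1% of all peaks met. The 3 that did not were the last Lhx2 peak, the Qsox1 peak near Lhx4 and the Ldb2 peak.

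Because H3K27ac peaks at start sites often go with CpG-rich sequence, the 300 bases around each 5′ end were compared. A window was called CpG-rich with at least 50% GC and a CpG observed over expected ratio of at least 0.6. Over all protein-coding genes, 83.1% of those with a CpG-rich 5′ end had a start-site peak, against 19.1% of the others. Lhx1, Lhx2, Lhx5 and Ldb1 were CpG-rich, and 2 of these 4 (Lhx2 and Ldb1) had a start-site peak. Of the 6 genes that were not CpG-rich, 1 had such a peak, Ldb2, with a ratio of 0.384.

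The ratio was 1.24 at Ldb1 and 0.913 at Lhx2. Lhx5 had a ratio of 1.08, above that of 95.6% of protein-coding genes, and Lhx1 a ratio of 0.742, yet neither had a start-site peak. Lhx4, Lhx9, Lhx6 and Lhx3 lay between 0.564 and 0.437, and Lhx8 was lowest at 0.293. Start-site peaks were thus called at 2 of the 4 CpG-rich genes and at 1 of the 6 others. These are too few genes to judge a relation, and none was tested.

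**Figure D5:**
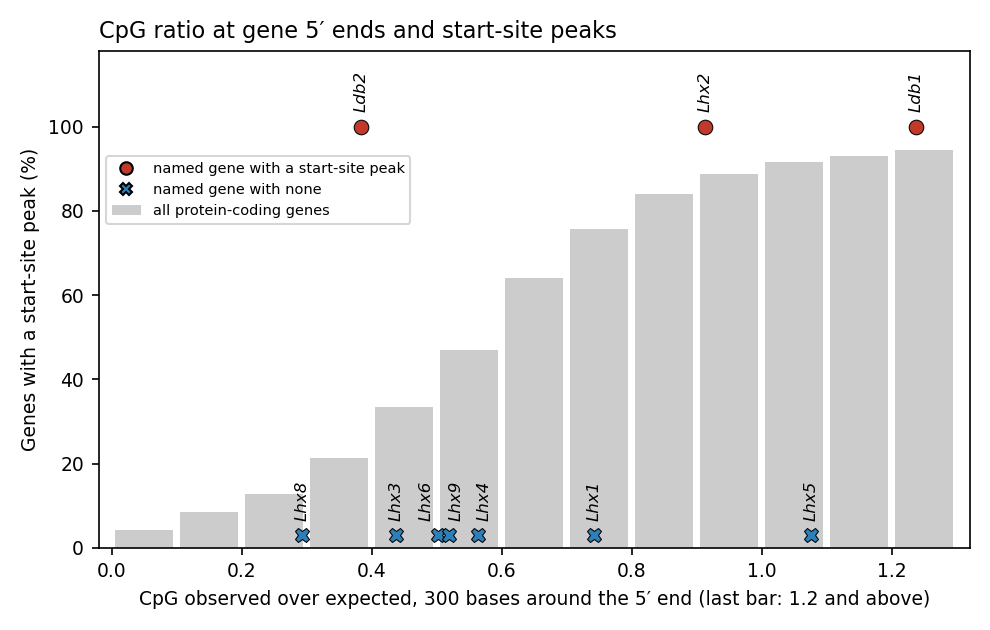
CpG observed over expected ratio of the 300 bases around the 5′ end (x axis, no unit) against the percentage of all protein-coding genes in each bin with a start-site peak (grey bars). The 10 genes are marked at their ratios, circles with and crosses without a start-site peak, at a fixed height that carries no value. Lhx5 at 1.08 and Lhx1 at 0.742 are crosses in bins where most genes have a peak, and Ldb2 at 0.384 is a circle where most have none.

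Of 12 further genes whose products share or modify these complexes, 8 had a start-site peak, against 49.8% of all protein-coding genes, and no test was made of this difference. Among the LIM homeobox genes of that list, Isl1, a gene of retinal ganglion and other early-born neurons, had a peak of 1154 bp with a fold enrichment of 4.74, while no start-site peak was called at Isl2, Lmx1a or Lmx1b. Of the LIM-only genes, whose products bind Ldb proteins but not DNA, Lmo4 had a peak of 4258 bp (length rank 113). Lmo2 had one of 1339 bp at an inner start, 11.6 kb from its 5′ end. Lmo1 had one of 671 bp, and none was called at Lmo3. Fold enrichments at Lmo4, Lmo2 and Lmo1 were 3.71, 3.80 and 3.60, below the stricter limit of 4 used for the member peaks. Those of the other genes with a peak in this list were 4.74 or more. The genes for the Ldb-stabilising single-stranded DNA binding proteins all had one, with 3441 bp at Ssbp3, 2781 bp at Ssbp4 and 2351 bp at Ssbp2. Rlim, a ubiquitin ligase that acts on Ldb proteins, had a peak of 1427 bp with a fold enrichment of 6.41. The longest peak of this list was shorter than the 5292 bp peak of Ldb1 and longer than any of Lhx2.

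Start-site peaks at marker genes were set beside the tissue label. The lists were chosen with earlier results of these data known, so they are no independent check of it. All 10 progenitor genes had one, with a median length of 5895 bp over the longest peak of each, as did 4 of 6 ganglion cell genes, 4 of 6 horizontal and amacrine cell genes and 2 of 4 photoreceptor genes. Beside the 49.8% of all protein-coding genes with such a peak, the counts for the neuron lists say little at these list sizes. None of 5 pigment epithelium, 5 lens, 4 blood and microglia and 4 periocular mesenchyme genes had one, and 1 of 4 endothelial genes did. Of all protein-coding genes without a CpG-rich 5′ end, 19.1% had such a peak, and the CpG class of the marker genes was not computed. In a bulk sample, fewer cells of a type and less acetylation per cell cannot be told apart. The pooled ChIP library held 113543038 tags after filtering and the control 9210563, a ratio of 12.3. A gene without a called peak was below the threshold in this list, and no level can be given for it.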

How the data were processed

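One peak list was analysed, that of H3K27ac ChIP-Seq in E14 retina. Per the paper's methods and the file header, reads were aligned to mm9 with Bowtie2, 2 replicates were pooled, and broad regions were called against 1 isotype control with MACS 2.1.0.20140616, keeping no more than 1 tag at a position and using 0.1 as the cutoff for broad regions. The deposited pileup is a signal, averaged over each region after the authors scaled the larger library down. The deposited fold enrichment is the ratio to local control background. The deposited −log10 p and −log10 q values are region averages from the same run.

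Filtering left 113543038 of 159237447 ChIP tags and 9210563 of 27735759 control tags. Replicates cannot be separated, so values carry no replicate error and no test was run. The members and gene lists were chosen with earlier results of these data known.

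Peaks were matched to GENCODE vM1 (overlap of at least 1 bp with the gene body and 50 kb on either side; a start-site peak lies within 1000 bp of any annotated start). No peak ran past a chromosome end, and 77.5% of midpoints lay within 1000 bp of a start. Percentiles and ranks are over all 13463 peaks. Tfap2b and Spi1 were matched to the annotation by older symbols among their RefSeq synonyms. Every member was named with its peaks, as were 12 genes of LIM complexes and any gene whose start lay in a member's peak. Peaks near the length of another were those between 0.8 times its length and the inverse multiple. Sequences were read from the mm9 (NCBIM37) genome with pysam 0.24.0, and tables were made with pandas 2.3.3 in Python 3.11.15 and tested on simulated data. Alternatives were stricter peak limits, other window sizes, other start-site definitions, joined peaks and other rankings.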

Additional observations from a re-analysis of the deposited data

How the results depend on the processing

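The count of 3 genes with a start-site peak fell to 2, Lhx2 and Ldb1, under the stricter limits (fold enrichment 4 or more, q 0.001 or less), and also when the peak had to cover the start site. It was 3 with a q of at most 0.01, with promoters reaching 5000 bp upstream, and with the 5′ end alone. The 17 window peaks became 10 with 25 kb on either side, 26 with 100 kb, and 8 without peaks at start sites of other genes only (the peak shared by Ldb1 and Pprc1 was kept), an alternative added after the data were seen. The median length percentile of 95.6, from the start-site peak of each gene with the most bases near a start, became 62.8 over all 5 start-site peaks and 57.8 with the peaks at 5′ ends alone, both added later. It was 97.1 under the stricter limits, where Ldb2 had no peak left and ranks were over 8628 peaks. There the length percentile was 94.5 for Lhx2 and 99.6 for Ldb1, against 95.6 and 99.7 in the full list. With gaps of at most 2000 bp joined, also added later, the median was 99.8. The median pileup percentile of 52.6 became 73.9 both over all 5 start-site peaks and with the peaks at 5′ ends alone. It was 41.9 among protein-coding start-site peaks, 54.3 under the stricter limits, 59.4 by fold enrichment and 96.4 by pileup times length. Under the stricter limits the pileup percentile was 71.4 for Lhx2 and 37.1 for Ldb1, against 79.6 and 52.6 in the full list. The length percentile therefore depends on which peak is taken. Both medians under the stricter limits rest on Lhx2 and Ldb1 alone, whose own percentiles were lower than in the full list. The causes of the other changes were not tested. Joining gaps of at most 1000 bp changed no count. The control was shallower than the ChIP library, which limits the fold enrichment values. No paired analysis was possible because the replicates were pooled before peaks were called and the list holds 1 value for each peak.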
